A study of Caenorhabditis elegans with 6 samples.

Results

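The UDP-glucuronosyltransferase (*ugt*) genes of *Caenorhabditis elegans* were compared between fed first-stage larvae (L1) and embryos. The family was taken as every gene whose symbol in the array's annotation is *ugt* followed by a number, among probe sets that name 1 gene. This gave 64 of the 17118 genes measured, and where a gene had more than 1 probe set, the brightest on average was read. All 64 carried the same symbol in the RefSeq annotation of the WBcel235 assembly, where each is protein-coding. That annotation holds 67 *ugt* genes, and *ugt-34*, *ugt-49* and *ugt-65* were not analysed here.

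The animals of both groups were of the wild-type strain N2, and the labels name no other allele and no drug. For the fed L1 group, per the labels, gravid adults were bleached and their eggs hatched for 24 h in M9 buffer at 20 °C, after which the larvae were given 10 mg/mL of *Escherichia coli* HB101 as food in S medium for 3 h, at 10 worms per µL. The mixed embryo group was collected by bleaching gravid adults that had grown on NG agar with HB101, and no narrower age is given. Each group had 3 Affymetrix arrays of whole-animal total RNA from many animals. The titles of the 3 embryo arrays carry the mark XX and a tag that all 3 share, followed by the letters A to C, and the labels do not explain either. Whether replicates came from separate cultures is not given, so the p-values rest on the spread among these arrays alone, and that spread may be technical. Stage, hatching in buffer and feeding cannot be told apart in this design, and neither can the array set, since the embryo arrays were taken from an earlier series and re-analysed.

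UDP-glucuronosyltransferases are membrane enzymes of the endoplasmic reticulum. They move a sugar from a UDP-sugar onto small fat-soluble molecules, which makes these more soluble and easier to export. In animals they form the second, conjugating phase of detoxification, after oxidation by cytochromes P450 and beside the glutathione S-transferases, and ATP-driven transporters then export the products. In *C. elegans* the intestine is a main site of such metabolism, and foreign compounds are often joined to glucose rather than to glucuronic acid. Substrates of most single members are not well described, so none is given below.

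Values are RMA expression values on the log2 scale, where 1 unit is a 2-fold step, and differences are fed L1 minus mixed embryo. Array medians were 6.08 to 6.11 for L1 and 6.01 to 6.04 for embryos. A ceiling for background was taken from 32 probe sets for bacterial and yeast transcripts, the foreign controls, whose highest value was 5.43. Their own differences had a median of 0.06 and ranged from -0.10 to 0.26. For the L1 samples the source field reads embryos, while title, description and stage read L1. On the arrays, 10 of 10 embryo and maternal markers were lower in the samples titled L1. By the same threshold, given below, 31.2% of all genes were lower there and 33.2% higher. *pes-10*, an early zygotic transcript, lay under the foreign control ceiling in those samples, while *mex-6* fell by 5.38 and *cyb-3* by 5.32. Adult yolk and sperm markers were at or under that ceiling on all L1 arrays for 5 of 9 measured genes and on all embryo arrays for 7 of 9. Their summed level was 8.36 to 8.45 on L1 arrays and 8.06 to 8.28 on embryo arrays (log2 of the sum). *msp-3* (fitted difference 0.60) and *spe-9* (0.34) rose. Both were under the ceiling on all embryo arrays, so *msp-3* was at least 1.41-fold higher in L1. The L1 mean of *spe-9*, 5.44, was barely over the ceiling.

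Most *ugt* genes were higher in fed L1. At a Benjamini-Hochberg adjusted p under 0.05 in limma, adjusted over all genes, 41 of 64 rose, 8 fell and 15 did not pass. Of all 17118 genes, 33.2% rose and 31.2% fell, or 64.4% in either direction. By fitted difference, at least 2-fold rises were found for 29 *ugt* genes (45.3%, against 17% of all genes) and at least 2-fold falls for 5 (7.81%, against 17.5%). The median *ugt* difference was 0.81, with quartiles of 0.07 and 1.79, and the median of all genes was 0.05. L1 and embryo arrays were fully separated for 51 *ugt* genes, or 79.7%, against 70.6% of all genes. The balance depended in part on the scale. With each array centred on ribosomal protein genes, which moved the median of all genes by -0.33, 37 *ugt* genes rose and 18 fell, so that rises were 67.3% of the calls in place of 83.7%. Over all genes the same centring took the share of rises among calls from 51.6% to 29.9%.

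**Figure D1:**
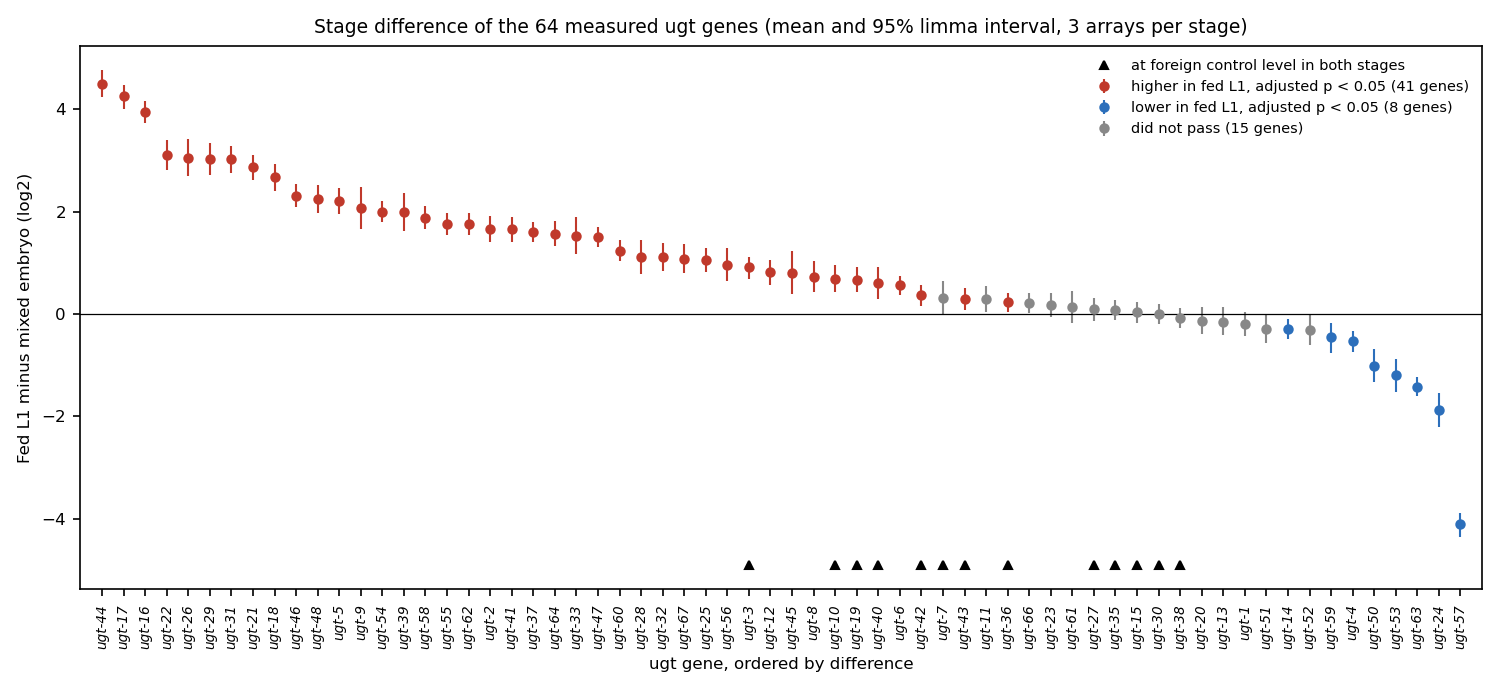
Difference between fed L1 and mixed embryo (log2, vertical axis) for each of the 64 *ugt* genes in order of size, with the 95% interval from limma over 3 arrays per stage. Red points (41) are higher and blue points (8) lower in L1, grey points (15) did not pass, and triangles mark the 13 genes at foreign control level in both stages; most of the range is filled by rises, and *ugt-57* stands alone at the lower end.

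Levels of the family as a whole were alike within each stage. The median *ugt* value was 6.81, 6.84 and 6.76 on the L1 arrays and 5.93, 5.94 and 6.09 on the embryo arrays. Between 48 and 50 of the 64 genes lay above the foreign control ceiling on an L1 array, and between 40 and 42 on an embryo array. The median SD of a *ugt* gene among 3 arrays was 0.13 in each stage, and the widest were 0.43 for *ugt-45* in L1 and 0.38 for *ugt-39* in embryos. Over the 64 genes, which share arrays and are not replicates, Pearson's r was 0.983 to 0.994 for a pair of arrays within a stage. For an L1 array against an embryo array it was 0.617 to 0.668, where all probe sets gave 0.775 to 0.791. The latter include several probe sets of a gene and those that name several genes or none. The ranges are therefore not directly comparable.

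Among the rises, 7 were of at least 3 log2 units, 6 of 2 to 3, 16 of 1 to 2 and 12 below 1. The largest was that of *ugt-44*, which read 9.83, 9.94 and 10.09 in L1 and 5.45, 5.67 and 5.28 in embryos. Its L1 arrays lay far above the embryo arrays, of which 1 was under the foreign control ceiling. The rise was 4.49 (SE 0.12, n = 3 per stage, 22.5-fold, limma adjusted p = 3.46e-10).

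Close behind came *ugt-17*, with 10.54, 10.44 and 10.76 in L1 and 6.31, 6.27 and 6.41 in embryos. It was measurable in both stages, with no overlap, and rose by 4.25 (SE 0.10, 19-fold, limma adjusted p = 2.41e-10). Its probe set is of a kind designed to match related sequences, so that RNA of a close relative could add to the signal. The same holds for 13 of the 64 genes, among them *ugt-29*, *ugt-46*, *ugt-48* and *ugt-5* of the 12 largest rises. For *ugt-16* the values were 9.15, 8.97 and 9.09 in L1 and 5.22, 4.99 and 5.19 in embryos. All embryo arrays were under the foreign control ceiling, so the rise has only a bound. It was at least 12.4-fold, from the L1 mean against the ceiling (fitted difference 3.94, limma adjusted p = 2.65e-10).

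A further group of genes rose by about 3 log2 units from different starting points. *ugt-22* gave 11.15, 11.21 and 11.28 in L1 and 7.79, 8.30 and 8.21 in embryos, a rise of 3.11 (SE 0.13, 8.64-fold). It was well above background in both stages, and another probe set that names both *ugt-22* and *Y43D4A.2*, not used for the counts, differed by 2.95. In *ugt-26* the L1 arrays read 9.34, 9.56 and 9.64 and the embryo arrays 6.21, 6.32 and 6.85. Embryo replicate C was the highest of its stage, and the gene rose by 3.05 (SE 0.16). *ugt-29* read 9.49, 9.48 and 10.00 against 6.68, 6.54 and 6.65, a rise of 3.03 (SE 0.14). *ugt-31* was at 8.10, 8.09 and 8.08 in L1, the tightest of these triplets, and at 5.26, 5.12 and 4.82 in embryos. Since the embryo values were under the ceiling, its rise was at least 6.32-fold. The limma adjusted p of these 4 genes ranged up to 4.52e-08.

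The next genes completed the 12 largest rises. *ugt-21* rose by 2.86 (SE 0.11) from an embryo mean of 5.6 ± 0.15 (SD, n = 3) to 8.46 ± 0.15. *ugt-18* went from 5.04 ± 0.21 to 7.71 ± 0.06, at least a 4.85-fold rise, since its embryo arrays were under the ceiling. These were followed by *ugt-46*, which rose by 2.31 (SE 0.10) and whose other probe set differed by 2.79. *ugt-48* rose by 2.24 (SE 0.12), with 2.65 in its other probe set, so that both of its probe sets gave a similar size. *ugt-5* rose by 2.20 (SE 0.11), from 8.38 ± 0.09 to 10.58 ± 0.20. The L1 and embryo arrays did not overlap for any of these genes.

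**Figure D2:**
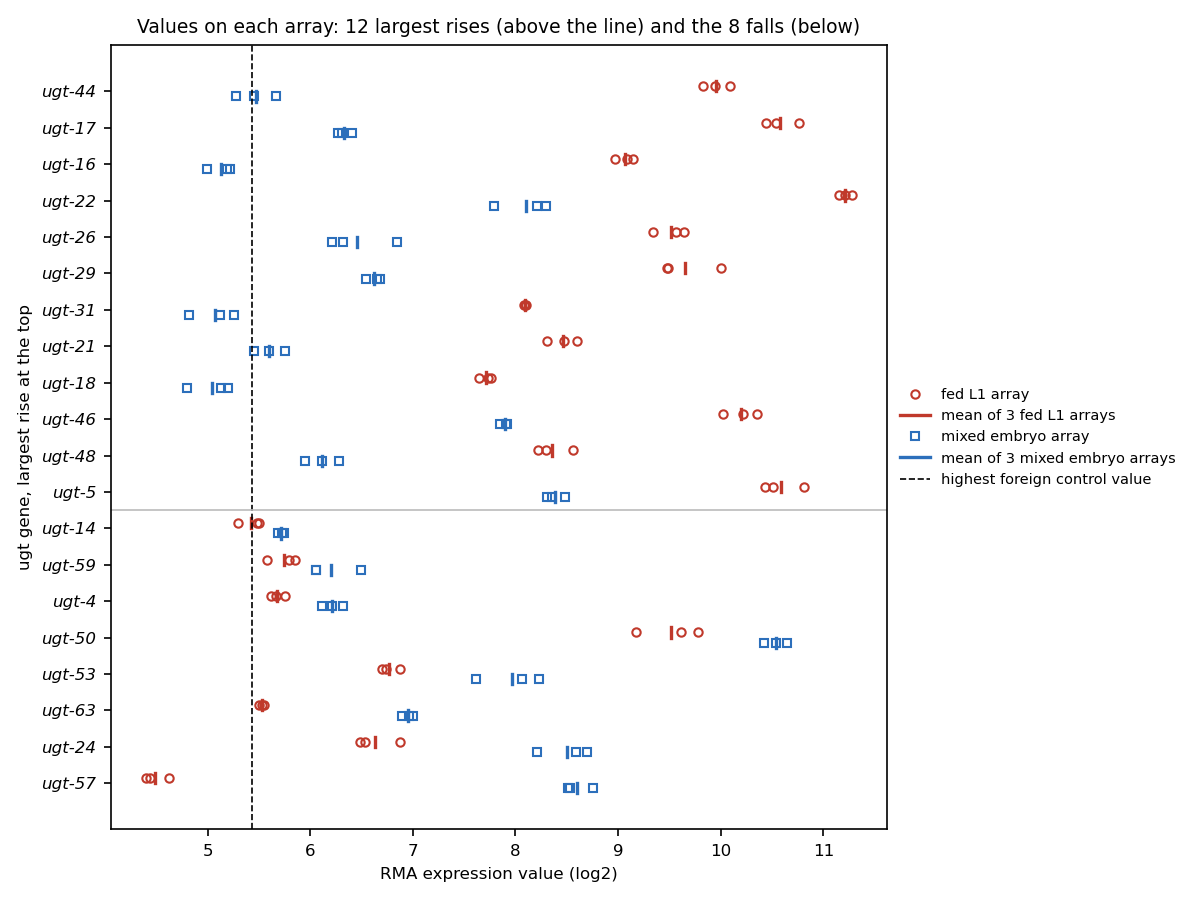
Log2 RMA values on each array (horizontal axis) for the 12 *ugt* genes with the largest rises, above the grey line, and the 8 that fell, below it. Red circles are the 3 fed L1 arrays and blue squares the 3 mixed embryo arrays, short bars are means, and the dashed line is the highest foreign control value of 5.43; no gene shown has overlapping stages, and *ugt-57* lies left of the line in L1.

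The remaining rises of 2-fold or more were *ugt-9* (2.07), *ugt-54* (2.0), *ugt-39* (1.99), *ugt-58* (1.88), *ugt-55* (1.76), *ugt-62* (1.75), *ugt-2* (1.66), *ugt-41* (1.65), *ugt-37* (1.6), *ugt-64* (1.57), *ugt-33* (1.53), *ugt-47* (1.51), *ugt-60* (1.23), *ugt-28* (1.11), *ugt-32* (1.11), *ugt-67* (1.08) and *ugt-25* (1.05). Of these *ugt-58* was measured with little spread in both stages, at 11.18 ± 0.04 in L1 and 9.30 ± 0.16 in embryos. Of all *ugt* genes, 9 were at foreign control level on the embryo arrays and not on all L1 arrays, and 9 of the 9 rose, which is partly fixed by how that group is defined. They were *ugt-16*, *ugt-31* and *ugt-18*, given above, *ugt-41* (at least 2.14-fold), *ugt-47* (at least 1.74-fold), *ugt-67* (at least 1.70-fold), *ugt-37* (at least 1.49-fold), *ugt-55* (at least 1.48-fold) and *ugt-56* (at least 1.30-fold, fitted difference 0.96). For *ugt-47*, *ugt-67*, *ugt-37* and *ugt-55* the bound is under 2-fold, so their place among the 2-fold rises rests on the fitted difference.

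Rises below 2-fold that lay above background in both stages were those of *ugt-12* (0.81), *ugt-45* (0.80), *ugt-8* (0.73) and *ugt-6* (0.56). *ugt-45* had the widest L1 spread, with 7.20, 7.78 and 6.93 against 6.64, 6.35 and 6.51 in embryos. The stages still did not overlap, and the limma adjusted p was 0.00326. In *ugt-6* the triplets were tight instead, at 6.43 ± 0.01 and 5.88 ± 0.04, and the small rise had an adjusted p of 0.000134 in limma.

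A total of 13 *ugt* genes were at or under the foreign control ceiling on all arrays. Of these 7 passed, all upward, with differences of 0.91 in *ugt-3*, 0.69 in *ugt-10*, 0.66 in *ugt-19*, 0.61 in *ugt-40*, 0.36 in *ugt-42*, 0.29 in *ugt-43* and 0.23 in *ugt-36*. Over the whole array 5473 genes were at that level throughout. Of the 5685 rises among all genes, 4779 were above it on 1 or more arrays, and of the 5339 falls, 5045. Rises thus outnumbered falls among dim genes of the whole array too. The call of *ugt-36* was lost without any 1 of 5 of the arrays (differences of 0.20 to 0.24, adjusted p from 0.063 to 0.0917 in limma), and its difference is within the range of the foreign controls themselves. That of *ugt-43* was lost without L1 replicate 3 (0.23) and without embryo replicate B (0.26) or C (0.28). Scaling also ended calls among these genes. With ribosomal protein centring *ugt-36* and *ugt-43* differed by -0.10 and -0.04, and *ugt-40* (0.28) and *ugt-42* (0.03) did not pass either. With another quantile normalization and with arrays centred on their medians, the calls of *ugt-36* (0.17 and 0.16) and *ugt-43* (0.22 in both) were lost. The other 6 genes of this kind, *ugt-7*, *ugt-27*, *ugt-35*, *ugt-15*, *ugt-30* and *ugt-38*, did not pass.

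Among the 8 falls, *ugt-57* stood apart. It read 4.44, 4.40 and 4.62 in L1 and 8.51, 8.76 and 8.53 in embryos. Every L1 array was under the foreign control ceiling, so the level in L1 was at least 8.98-fold lower (fitted difference -4.11, SE 0.10, limma adjusted p = 2.78e-10). No other *ugt* gene was at foreign control level in L1 and above it in embryos.

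The next falls were smaller, and their L1 values stayed above the ceiling. *ugt-24* gave 6.53, 6.87 and 6.48 in L1 and 8.70, 8.21 and 8.59 in embryos, without overlap. It fell by 1.87 (SE 0.15, limma adjusted p = 1.05e-06), on a probe set designed to match related sequences. *ugt-63* was at 5.50, 5.55 and 5.53 in L1, just over the ceiling, and at 6.96, 6.89 and 7.0 in embryos. Its fall of 1.42 (SE 0.08, adjusted p = 9.26e-08 in limma) came with the smallest error of the 8. In *ugt-53* the L1 arrays read 6.74, 6.87 and 6.70 and the embryo arrays 7.62, 8.23 and 8.06, a fall of 1.20 (SE 0.14).

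*ugt-50* depended on the probe set. The one used read 9.61, 9.78 and 9.17 in L1 and 10.65, 10.54 and 10.42 in embryos, a fall of 1.01 (SE 0.15, limma adjusted p = 0.000121). A second probe set differed by -0.86, with means of 6.28 in L1 and 7.15 in embryos. The third, the only one of the 3 not designed to match related sequences, differed by 0.30 and passed limma upward (adjusted p = 0.027). Its means were 6.87 and 6.57, so both others were dimmer than the one used. Which of the 3 reads the gene best was not tested. *ugt-50* was the only *ugt* gene whose probe sets differed in sign, among the 3 that had more than 1. The falls of *ugt-4* (0.53), *ugt-59* (0.46) and *ugt-14* (0.29) were below 2-fold. That of *ugt-59* was lost without L1 replicate 1 (-0.38, limma adjusted p = 0.0528) and that of *ugt-14* without L1 replicate 2 (-0.23, adjusted p = 0.0572).

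The 15 *ugt* genes that did not pass split into 9 with a positive and 6 with a negative difference. For 11 of them the 95% interval from limma lay within 0.5 log2 units of 0, and for the 15 it stayed within 1. Those with the largest differences were *ugt-7* (0.31, interval -0.02 to 0.64), *ugt-52* (-0.31, interval -0.61 to 0.00) and *ugt-51* (-0.29, interval -0.57 to -0.01, unadjusted). *ugt-52* read 6.89, 7.39 and 7.05 in L1 and 7.30, 7.37 and 7.59 in embryos, with overlap through L1 replicate 2. Without that array it differed by -0.45 and passed (limma adjusted p = 0.0101). *ugt-7* differed by 0.47 and passed without embryo replicate B (limma adjusted p = 0.00928), and *ugt-11* (0.29, adjusted p = 0.051) passed without L1 replicate 2 (0.38) or embryo replicate C (0.35). *ugt-51* passed without embryo replicate A (-0.34) or B (-0.36), and *ugt-52* also without embryo replicate A (-0.37). The members *ugt-23* (0.17), *ugt-13* (-0.15), *ugt-61* (0.13), *ugt-66* (0.21), *ugt-1* (-0.20) and *ugt-20* (-0.13) were above the foreign control ceiling on all arrays, except *ugt-1* on L1 replicate 2 (5.42). The positive differences of *ugt-7*, *ugt-11*, *ugt-23*, *ugt-61* and *ugt-66* were -0.02, -0.05, -0.16, -0.20 and -0.12 with ribosomal protein centring, and none passed there. With another quantile normalization, in contrast, *ugt-23* (0.34, limma adjusted p = 0.0145) and *ugt-11* (0.30, adjusted p = 0.037) passed upward and *ugt-1* (-0.30) passed downward. With arrays centred on their medians *ugt-1* (-0.27), *ugt-51* (-0.36) and *ugt-52* (-0.37) passed downward. Ribosomal protein centring took *ugt-1* (-0.53), *ugt-13* (-0.48), *ugt-20* (-0.46), *ugt-38* (-0.41), *ugt-51* (-0.62) and *ugt-52* (-0.64) past the threshold downward. *ugt-23* was at 9.30 ± 0.15 in L1 and 9.13 ± 0.11 in embryos.

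Many *ugt* genes lie beside each other in the genome. In the WBcel235 gene order, 37 of the 67 annotated genes fell into 12 runs, a run being neighbouring *ugt* genes with at most 2 other protein-coding genes between them, and 36 of the 37 were measured. Chromosome V held 40 of the 64 measured genes, of which 26 rose and 4 fell. On IV 7 of 11 rose and 2 fell, on I 4 of 5 rose and 0 fell, on III 2 of 3 rose and 0 fell, and the single gene of II, *ugt-58*, rose. On the X chromosome *ugt-46* rose, *ugt-57* and *ugt-50* fell and *ugt-23* did not pass. Of the 36 measured genes in runs 26 rose and 2 fell, and of the 28 outside runs 15 rose and 6 fell. The difference between these shares was not tested.

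Members of a run did not share 1 size of change. The longest run, on V, holds 8 genes, and in chromosome order the differences were 0.81 (*ugt-12*), 0.29 (*ugt-11*), 2.07 (*ugt-9*), 0.69 (*ugt-10*), 1.08 (*ugt-67*), 0.73 (*ugt-8*), -0.29 (*ugt-14*) and -0.15 (*ugt-13*). The only 2-fold rises in it by fitted difference were *ugt-9*, with 9.57, 9.93 and 9.31 in L1 and 7.88, 7.24 and 7.48 in embryos, and *ugt-67*. The embryo arrays of *ugt-67* were under the foreign control ceiling, and its rise is bounded only at 1.70-fold or more. The run of 4 on chromosome I ran 3.05 (*ugt-26*), 0.09 (*ugt-27*), 1.11 (*ugt-28*) and 1.05 (*ugt-25*). There *ugt-27* stayed under the foreign control ceiling. The other run of 4, on V, ran 2.20 (*ugt-5*), -0.53 (*ugt-4*), 0.56 (*ugt-6*) and 0.91 (*ugt-3*), so that a gene that fell sat between genes that rose. *ugt-4* read 5.62, 5.75 and 5.67 in L1 and 6.32, 6.21 and 6.11 in embryos, without overlap (limma adjusted p = 0.000439).

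Among the 24 neighbouring pairs with both genes measured, both rose in 12, 1 rose and 1 fell in 3, and only 1 of the pair was called in 9. No pair fell together. Of the 36 measured genes in runs 72.2% rose and 5.56% fell, against 33.2% and 31.2% of all genes. With mostly rises and few falls, these pair counts do not show that neighbours are alike. Whether they are more alike than unlinked *ugt* genes was not tested. The median gap between the differences of a pair was 1.05. It was widest, at 4.20, between *ugt-43* (0.29, under the foreign control ceiling throughout) and *ugt-44* (4.49). The run of *ugt-18* (2.67), *ugt-16* (3.94) and *ugt-15* (0.03, at foreign control level throughout) also mixed large differences with one near 0.

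**Figure D3:**
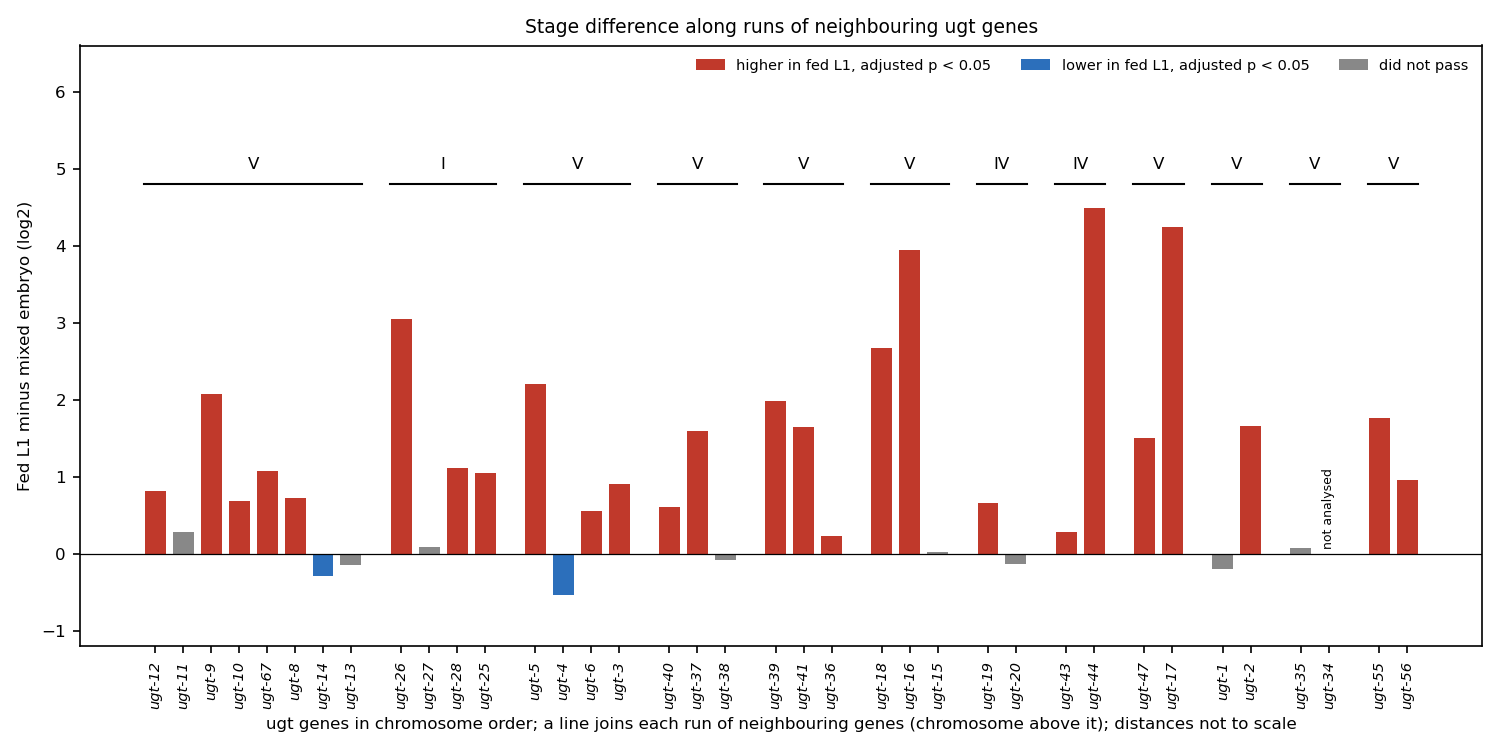
Difference between fed L1 and mixed embryo (log2, vertical axis) for *ugt* genes in 12 runs of neighbours, in chromosome order, with the chromosome above each run and distances not to scale. Red bars are higher and blue bars lower in L1, grey bars did not pass; neighbours differ in size, as in *ugt-43* and *ugt-44*, and the blue bars of *ugt-14* and *ugt-4* lie inside runs with red ones.

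A short list of genes that make, carry or use UDP-sugars was read as well. Of 7 measured, 4 fell and 1 rose (57.1% and 14.3%), and the median was -0.63. Of all genes 31.2% fell and 33.2% rose. The list mixes these roles, so its counts do not describe UDP-sugar supply. *uggt-2* was at foreign control level on all arrays and did not pass (0.04). *sqv-4* encodes the UDP-glucose dehydrogenase that makes UDP-glucuronic acid. It read 7.99, 8.01 and 8.18 in L1 and 8.93, 9.20 and 9.29 in embryos, a fall of 1.08 (SE 0.11, limma adjusted p = 8.62e-06). The largest fall was that of *hut-1*, a nucleotide sugar transporter gene of the endoplasmic reticulum, by 1.74 (SE 0.10). *sqv-7*, which encodes a Golgi transporter of UDP-sugars that include UDP-glucuronic acid, fell by 1.10 (SE 0.13). *uggt-1*, a glucosyltransferase of glycoprotein quality control that uses UDP-glucose, fell by 0.63. *sqv-1*, which encodes the decarboxylase that uses up UDP-glucuronic acid, differed by 0.23 and did not pass. The glycogen synthase gene *gsy-1*, a user of UDP-glucose, rose by 0.39 (limma adjusted p = 0.0344), a call lost without any 1 of the 3 L1 arrays (0.38 to 0.40), without embryo replicate B (0.32) or C (0.28), with median centring (0.32), with ribosomal protein centring (0.06) and with the mean of its probe sets (0.24).

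Of 15 measured regulators known to act on detoxification genes, 11 rose and 0 fell, and the median was 0.77. Of all genes 33.2% rose and 31.2% fell. The list was not split into activators and repressors, and among the rises were *wdr-23* (1.28) and *skn-1* (0.44). With ribosomal protein centring 10 rose and 2 fell, where 23.2% of all genes rose and 54.4% fell. *pqm-1*, a zinc finger factor gene of stress responses, read 10.35, 10.36 and 10.52 in L1 and 6.64, 6.78 and 6.88 in embryos, a rise of 3.65 (SE 0.10). *nhr-8*, a nuclear receptor gene of xenobiotic resistance, rose by 2.63 (SE 0.09). The Mediator subunit gene *mdt-15*, which is needed for the induction of many detoxification genes, rose by 1.6 (SE 0.10). The aryl hydrocarbon receptor gene *ahr-1* differed by 0.0 (interval -0.26 to 0.26) and its partner *aha-1* by -0.24, and neither passed.

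Counts for other enzymes of detoxification and for the *pgp*, *mrp* and *haf* transporters are given without a test between lists. The transporters were taken by gene symbol, so not every member need act in detoxification. Of 73 cytochrome P450 genes 39 rose and 9 fell (53.4% and 12.3%), with a median of 0.33. The largest rises were those of *cyp-14A5* (at least 23.4-fold, as it was at foreign control level in embryos) and *cyp-35A2* (4.11), and the largest fall that of *cyp-13B1* (1.85). Of 42 glutathione S-transferase genes 27 rose and 4 fell (64.3% and 9.52%), with a median of 1.01, led by *gst-27* (4.20) and *gst-6* (3.74), while *gst-7* fell by 1.69. Of 29 genes of the *pgp*, *mrp* and *haf* transporters, which pump compounds across membranes, 22 rose and 1 fell (75.9% and 3.45%), with a median of 1.11. *pgp-3* rose by 5.41 (SE 0.14), *pgp-11* was at least 7.69-fold higher in L1, and *mrp-4* fell by 0.93. The corresponding *ugt* shares were 64.1% and 12.5%, and those of all genes 33.2% and 31.2%. The lists differ in how many members were at foreign control level in both stages, so their medians are not directly comparable. These were 32 of 73 cytochrome P450 genes and 8 of 42 glutathione S-transferase genes. They were 3 of 29 transporter genes and 13 of 64 *ugt* genes. With ribosomal protein centring the medians were 0.00 for cytochromes P450, 0.68 for glutathione S-transferases, 0.78 for transporters and 0.48 for *ugt* genes. The median of all genes was -0.28 there. Of the 73 cytochrome P450 genes 24 fell and 27 rose, where 54.4% of all genes fell and 23.2% rose.

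Markers of tissues moved with the stages too, and their counts stand beside 33.2% of all genes that rose and 31.2% that fell. Of 12 intestine markers 11 rose, *elt-7* being the exception, and the median was 2.46. Their summed level was 14.69 to 14.74 on L1 arrays and 12.22 to 12.46 on embryo arrays (log2 of the sum), and *pgp-1* was at foreign control level in embryos. *mtl-2* (3.88) and *pho-1* (3.58) rose most, and *elt-2*, the GATA factor gene of intestinal fate, rose by 1.03. Of 8 epidermis markers 6 fell, *elt-3* rose (0.35) and *col-19* did not pass, with summed levels of 11.42 to 11.88 in L1 and 12.87 to 13.18 in embryos. *dpy-7* was at least 35.3-fold lower in L1 and *wrt-2* fell by 4.32. In L1 *dpy-7* and *rol-6*, which also fell, were at foreign control level, and *col-19* was so in both stages. Of 8 neuron markers 6 rose and *unc-119* fell (by 1.65), with summed levels of 13.52 to 13.60 and 12.33 to 12.41, and *egl-21* (4.46) and *unc-64* (1.79) rose most. Among those that rose, *rgef-1* was at foreign control level in both stages. The part of tissue content in the *ugt* differences was not tested. In RNA of whole animals, more cells of a type and more RNA per cell cannot be told apart.

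**Figure D4:**
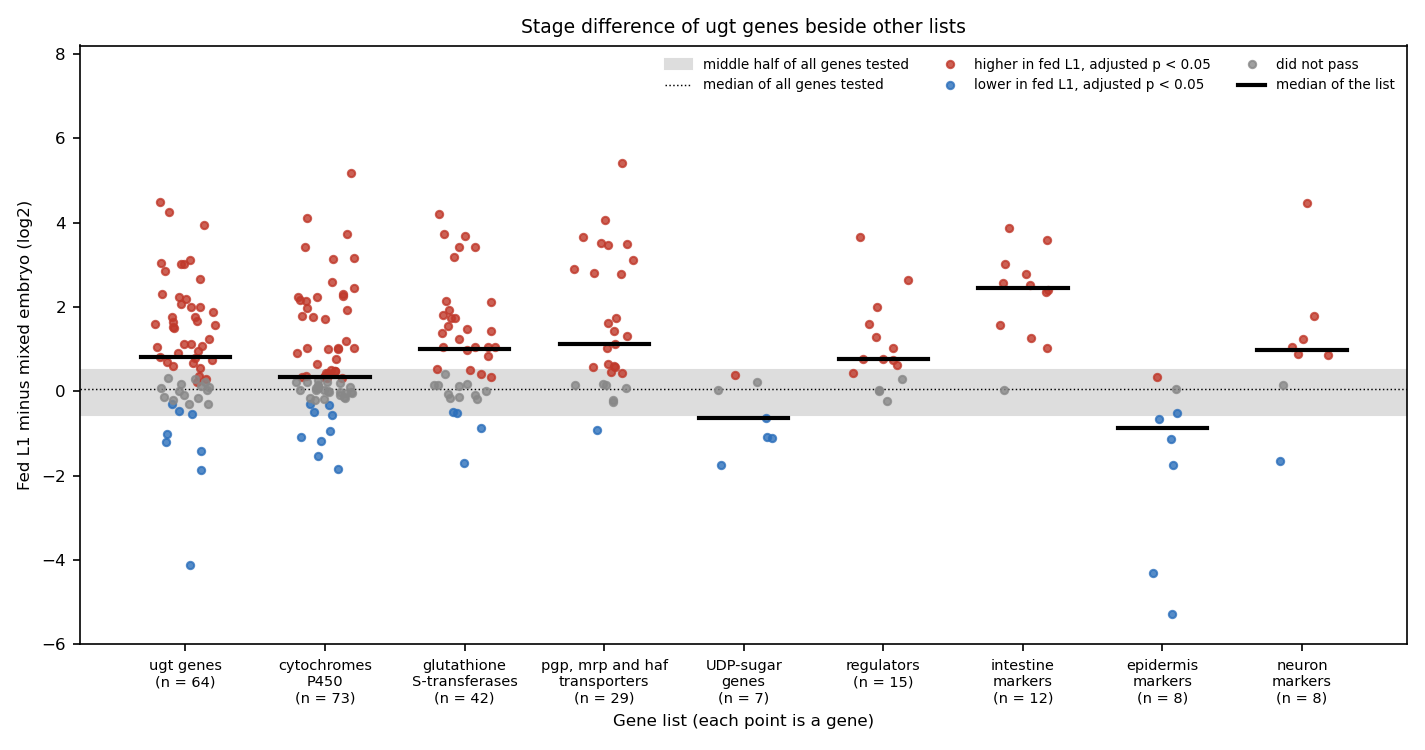
Difference between fed L1 and mixed embryo (log2, vertical axis) for each gene of the *ugt* family, of other enzyme, transporter and regulator lists and of tissue markers. Black bars are list medians (0.81 for *ugt* genes, 2.46 for intestine markers, -0.63 for UDP-sugar genes), the grey band spans the quartiles of all 17118 genes, and point colours give the limma call; *pgp-1*, *elt-2* and *elt-7* are each in 2 lists.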

How the data were processed

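Biotin-labelled cRNA was made from 8 µg total RNA of 3 fed L1 and 3 mixed embryo samples and hybridised to Affymetrix arrays, 1 sample each, per the labels. The authors deposited 1 log2 value for each probe set of each array, made with RMA per the submitters' processing notes. RMA equalises distributions between arrays and compresses low values, so a general change in RNA content is hidden. Its version, and whether all 6 arrays were normalized together, are not given in the sources used here.

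Of 22625 probe sets, 77 controls were left out, and 20766 of the others named 1 gene, 887 several and 895 none in the platform annotation. Only the first kind was used. No pair of arrays was identical. Groups came from titles. Fed L1 minus mixed embryo was fitted over 17118 genes with limma 3.58.1 in R 4.3.3 (lmFit, eBayes, 2-sided, Benjamini-Hochberg over all genes, threshold 0.05). SE is limma's moderated standard error, and intervals are at 95%. The number of arrays limits precision. The fit was tested on simulated data. Bounds given as "at least" compare the brighter stage's mean with the highest foreign control value.

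The members and lists were chosen with earlier results of these data known. *gale-1*, *hif-1* and *vit-3* of the lists were not analysed here. Named *ugt* genes were the 12 largest rises and 8 largest falls that passed without overlap, the 3 largest differences that did not pass, genes whose probe sets differ in sign and the 3 longest runs. In each list the 2 largest changes in the more frequent direction and the largest in the other were named. Others are given to account for the family or, in the lists, for their known role, and were chosen after their values were seen. The planned description of protein and promoter features was not made here. Neighbours came from WBcel235 gene order, with no coordinates used. Alternatives were other scalings (quantile, median, ribosomal proteins), filters on dim genes (the 25th percentile, foreign control level), variance models, probe set choices and leaving out each array.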

Additional observations from a re-analysis of the deposited data

How the results depend on the processing

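No paired analysis was possible because L1 replicates are numbered and embryo replicates lettered. Over 15 alternatives the count of *ugt* genes that rose ranged from 33 to 43, but some alternatives held fewer genes. The 33 were of 53 genes with probe sets meant for a single transcript, against 41 of 64 in the main analysis. The filters on dim genes gave 37 of 54 and 35 of 51. Under every alternative that measured them, 37 genes rose and 5 fell. Leaving out 1 array gave 39 to 42 rises, 7 to 10 falls, 28 to 29 rises and 4 to 5 falls of at least 2-fold, and medians of 0.74 to 0.88. Ribosomal protein centring gave 18 falls and a median of 0.48, since it lowers every difference alike. It turned *ugt-15* (-0.30), *ugt-27* (-0.24), *ugt-30* (-0.33), *ugt-35* (-0.25), *ugt-36* (-0.10) and *ugt-43* (-0.04), all under the foreign control ceiling on every array. The positive differences of 5 other genes, given above, turned without passing. The median was 1.09 over the 54 genes not under the 25th percentile and 1.11 over the 51 not at foreign control level on all arrays, as dim members differ little. Probe sets meant for a single transcript held 53 *ugt* genes, with a median of 0.69 and 3 falls of at least 2-fold, as fewer genes were tested and *ugt-50* turned (0.30). Array weights per group changed no *ugt* call. Trend and robust settings added *ugt-7*, and averaging probe sets within genes added *ugt-11* and *ugt-66*. The last 2 have 1 probe set each, so their differences stayed at 0.29 and 0.21. Only the fit and adjustment over all genes moved (limma adjusted p = 0.0464 and 0.0471). Signal at background in both stages limits 13 genes. Another 9 genes at that level in embryos only, and *ugt-57* in L1 only, have bounds in place of a size.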
